A study of Drosophila melanogaster with 24 samples.

Results

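Heads of old and young flies were compared in the light phase, at the times of day sampled 4 h (ZT4) and 8 h (ZT8) after lights on, where ZT stands for Zeitgeber time. Of the 24 RNA-seq libraries of the series, 8 belong to this comparison. They are 4 libraries from old females (55 days) and 4 from young females (5 days), with replicates 1 and 2 at each time, and they were chosen by the age, time and replicate in the sample labels. All 24 libraries come from heads of Drosophila melanogaster females of the strain w[1118], which lacks the eye colour protein White and is the usual control background. The flies were mated, kept under a 12 h light and 12 h dark cycle, and many heads were pooled for each library, so a value is an average over animals and over all cell types of the head. RNA was selected by its poly(A) tail and sequenced with strand kept. The study describes its replicates as biological ones, and the labels name no separate cultures, so p-values measure the spread between these samples.

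The fly head holds the compound eyes, the ocelli, the brain with its glia, the antennae, head muscle, head fat body and blood cells. In the daily clock, the factors Clk and cyc switch on per, tim, vri and Pdp1, and the PER and TIM proteins later feed back on Clk and cyc. In the first hours of light the PER and TIM proteins are cleared and the mRNAs of their genes are low, after which these climb toward the evening. Photoreceptors convert light into a current through rhodopsins, a G protein, phospholipase C and the channels trp and trpl.

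The values are FPKM, the sequenced fragments of a gene relative to its length and to the mapped reads of its library, as the authors computed them. The deposited values of old libraries ran higher over most genes, so each library was divided by its median ratio to the mean library, and levels below are these scaled FPKM. Differences are log2 fold changes of scaled FPKM + 1, old minus young, followed by ± and the standard error, and on this scale the change of a weakly expressed gene comes out too small. A gene was said to rise or fall when its Benjamini-Hochberg adjusted p, over all 9514 genes with a mean level above 1, was at most 0.01 in limma with time of day as a block. Pearson's correlation of log2 values across genes was 0.973 to 0.981 between the replicates of a group and 0.942 to 0.954 between ages at the same time, and genes are not independent replicates. The head origin was visible in the most abundant transcripts, among them ninaE, the main rhodopsin of the eye, at a mean level of 12010 in young and 11670 in old heads. Of 15 ovary markers none passed the filter, 5 were at 0 in all 8 libraries, and their summed level was 0.55 to 1.02 in young and 0.97 to 1.71 in old libraries. Of 12 midgut markers, 1 passed, with 5 at 0 in all 8 and summed levels of 0.87 to 1.25 and 1.28 to 1.82. FPKM carries no read numbers, so the depth is unknown and no counting error is given.

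Age changed a large part of the head transcriptome in the light phase. In old heads 1535 genes were higher (16.1% of all tested) and 1824 were lower (19.2%). The counts of every gene list below are to be read against these shares. A change of at least 1.5-fold on the log2 scale was seen for 518 of the higher and 696 of the lower genes, and of at least 2-fold for 161 and 153. The median difference of all genes tested was 0.01. On the deposited FPKM with no scaling, this median was 0.21, 3495 genes were higher and 970 lower, so the share of higher genes among those called was 78.3% in place of 45.7%. All 4 old libraries lay above all 4 young ones for 20.5% of the genes tested, and below them for 22.1%. Neither count of calls changed by over 1.5 times when any 1 library was left out.

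**Figure D1:**
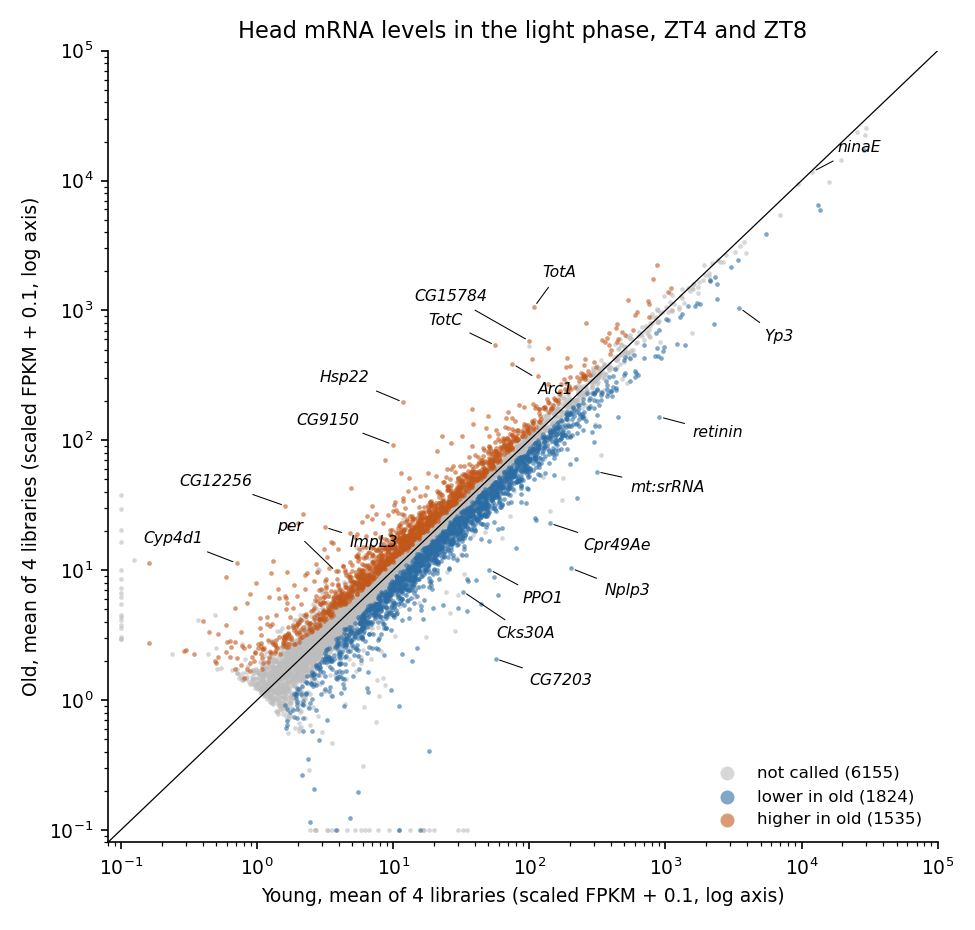
Mean scaled FPKM + 0.1 of each of the 9514 genes in the 4 young (x axis) and 4 old (y axis) light-phase libraries, both on log axes. The 1535 genes that rose with age are orange, the 1824 that fell are blue and the 6155 not called are grey, with genes such as Hsp22 and TotA far above the diagonal and CG7203 and Nplp3 far below it.

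On the scale used, with a pseudocount of 1, the largest rise among genes with a mean level of at least 10 and no overlap of the ages was that of Hsp22 (FBgn0001223, plus strand of chromosome 3L from 9372931 to 9374964 in BDGP6), a small heat shock protein of mitochondria. It stood at 11.4 and 8.76 in the young libraries at ZT4, at 11.9 and 14.8 at ZT8, and in the old libraries at 106 and 103 at ZT4 and at 296 and 280 at ZT8. The difference was 3.80 ± 0.21 (adjusted p = 1.3e-05 in limma). That the ages did not overlap was a condition for naming these genes and not a separate result. CG12256 rose from 0.762 to 1.98 in young to 28.1 to 32.7 in old libraries, which was 20.5-fold in mean level against 16.7-fold for Hsp22. With a pseudocount of 0.1 the differences were 5.26 for snoRNA:CG16892-a, 4.34 for CG12256 and 3.90 for Hsp22. The snoRNA was listed at 0 in both young libraries at ZT8, so the size of its difference depends on the pseudocount. TotA and TotC, secreted stress proteins of the Turandot family, lie next to each other on chromosome 3R, from 20871036 to 20871700 and from 20872988 to 20873580. TotA was at 72.1, 99.2, 148 and 114 in young and at 756, 1092, 1030 and 1388 in old libraries, a difference of 3.30 ± 0.17. TotC went from a mean of 56.1 ± 27.0 (SD, n = 4 libraries) to 538 ± 179 (SD, n = 4).

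Other genes with rises of this size included enzymes of small-molecule metabolism. Gnmt, the glycine N-methyltransferase that uses up S-adenosylmethionine, was at 0.852 to 2.68 in young and 11 to 36.4 in old libraries (3.04 ± 0.29). ImpL3, the lactate dehydrogenase, rose from 2.66, 2.37, 2.99 and 4.16 to 13.8, 12.6, 29.6 and 29.2 (2.38 ± 0.16). Arc1, a brain gene that responds to neuronal activity and forms capsid-like particles that carry its own mRNA, was at 70.8, 75.3, 68.2 and 85.4 in young and at 353, 361, 409 and 430 in old libraries. Its difference was 2.36 ± 0.08. The tetraspanin gene Tsp42Ed rose 4.59-fold and the odorant binding protein gene Obp56a 3.92-fold in mean level. The remaining genes of the 20 with the largest rises were snoRNA:CG16892-a, CG9150, CG4269, CG9759, CG32368, CR45865, CG15784, CG9689, CG45087, CG3814 and CG5966, with differences between 1.94 and 3.51. CG45087 shares its span with Pepck1 in the annotation, so the reads of both could be split between them. CR45865 was no longer called when any 1 of 6 of the 8 libraries was left out (adjusted p up to 0.018 in limma), namely either old library of either time or the first young library of either time.

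The steepest falls on this scale were those of CG7203 (chromosome 2L, 7752170 to 7753186), from 68.8, 72.2, 50.2 and 34.7 in young to 1.86, 2.04, 1.95 and 2.07 in old libraries, and of Nplp3. Nplp3 (chromosome 3L, 16318024 to 16318690) encodes a neuropeptide-like precursor and was at 212, 203, 182 and 216 in young and at 13.4, 9.14, 9.33 and 9.02 in old libraries. Its mean level was 19.9-fold higher in young heads, and the difference was -4.20 ± 0.11 (adjusted p = 1.2e-06 in limma). Retinin, a protein of the corneal lens, lies on the same strand of 3L from 16331933 to 16332789. It fell from 894, 920, 907 and 890 to 187, 160, 140 and 120, with young libraries that hardly differed from each other. The cuticle genes Cpr49Ae and Cpr49Ag, which sit close together on chromosome 2R, were 6.18-fold and 6.24-fold higher in young heads.

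Both prophenoloxidase genes of the crystal cells, a blood cell type that forms melanin, were among the 20 steepest falls. PPO1 was at 50.0, 45.8, 55.5 and 52.4 in young and at 10.8, 9.23, 10.4 and 9.50 in old libraries (-2.24 ± 0.07). PPO2 was 4.85-fold higher in young heads. CG4461, a gene of the small heat shock family, starts just behind the end of Hsp22 on the same strand of 3L (9375430 to 9376293) and fell, from 34.2, 34.1, 28.8 and 23 to 5.16, 4.65, 5.35 and 5.00 (-2.35 ± 0.11). CG7409, of the same family, was 5.34-fold higher in young heads. Cyp313a1, a cytochrome P450, was 4.42-fold higher and Cks30A, a subunit of cyclin-dependent kinase, 4.82-fold higher in young heads. The remaining genes of these 20 were CG4000, CG32523, Scp1, CG11211, mt:srRNA, CG9512, CG15353, CG9766 and CG40298, with differences between -3.03 and -1.91.

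Of the 8 core clock genes, 3 rose and 2 fell, with 5 and 1 without scaling and 3 and 0 with the spread taken from all 24 libraries. The 3 that rose, per, tim and vri, are targets of Clk and cyc and are at the low point of their cycle or climbing from it at these times. The transcript of per was at 1.70 and 1.38 in young heads at ZT4 and at 5.98 and 6.09 in old heads, and at ZT8 at 5.50 and 6.18 against 14 and 12.7. The old level at ZT4 was thus close to the young level 4 h later. The ratio of the means was 3.92 at ZT4 and 2.29 at ZT8, and the difference over both times was 1.27 ± 0.10 (adjusted p = 4.3e-05 in limma). The gene tim gave 17.4 and 18.3 against 46.1 and 48.4 at ZT4, and 99.8 and 92.3 against 125 and 127 at ZT8. Its ratio was 2.65 and then 1.31, as tim climbed 5.39-fold from ZT4 to ZT8 in young heads and 2.67-fold in old heads. For vri, which encodes a repressor of Clk transcription, 23.5 and 24.1 stood against 49.8 and 54.0 at ZT4, and 73.5 and 78.5 against 104 and 110 at ZT8.

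Clk, the activator itself, was at 45.7 and 40.1 in young and 29.9 and 32.5 in old heads at ZT4, and at 31.6 and 35.0 against 23.4 and 24.1 at ZT8 (-0.46 ± 0.06, adjusted p = 0.00044 in limma). With the spread of all 24 libraries its adjusted p was 0.025. Both old libraries were below both young ones at each time, although old ZT4 and young ZT8 overlapped. For cry, the blue-light receptor that marks TIM for degradation, the difference was -0.20 ± 0.05 (adjusted p = 0.0093 in limma) with scaling and 0.025 without it, and the call was lost when any 1 of the 8 libraries was left out (adjusted p up to 0.032). The repressor cwo had a difference of 0.18 ± 0.04 that missed the threshold (adjusted p = 0.011), with both old libraries above both young ones at each time, and those of cyc (0.11 ± 0.06) and Pdp1 (-0.08 ± 0.05) were not called. The call of tim was lost without either ZT4 library of either age or without the second young library at ZT8 (adjusted p up to 0.017 in limma), and with time of day not in the model per, tim, vri and Clk were not called.

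**Figure D2:**
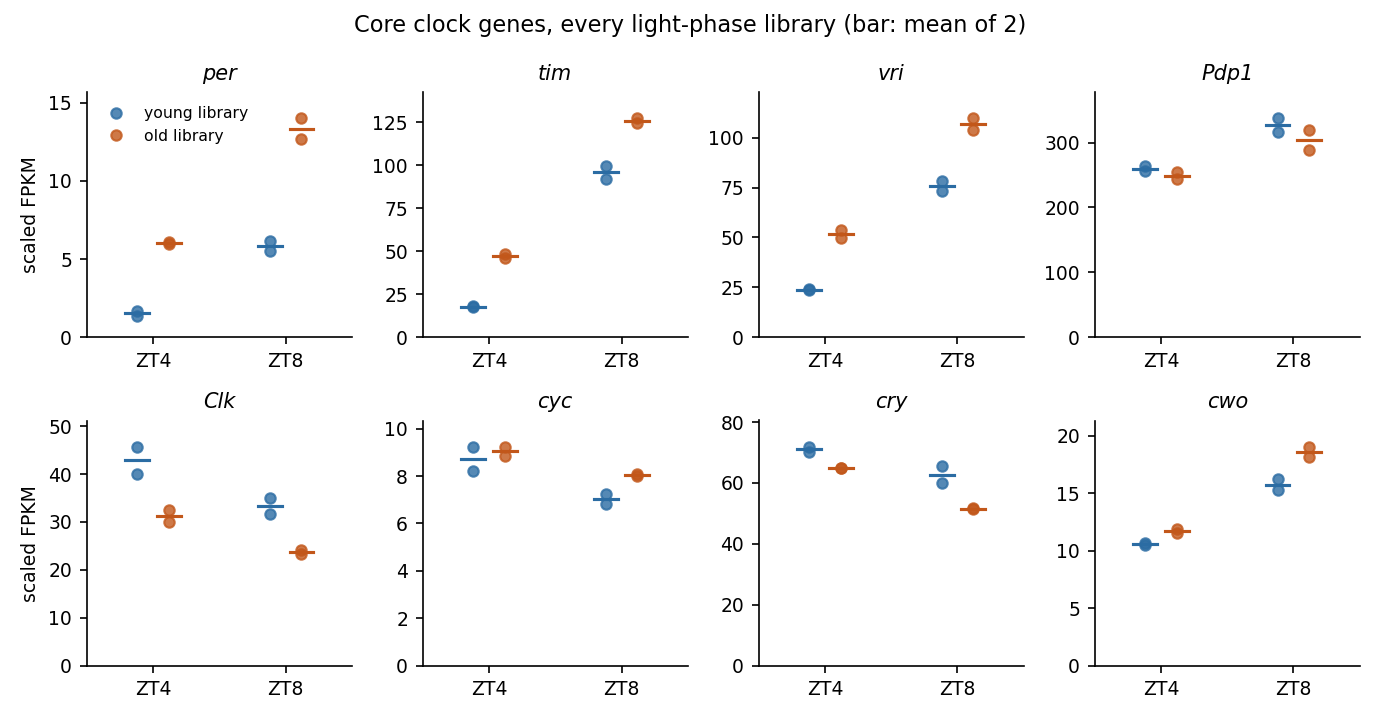
Scaled FPKM of the 8 core clock genes in each of the 8 light-phase libraries, by time of day (x axis), with young libraries in blue and old ones in orange and bars at the mean of 2. For per, tim and vri both old libraries lie above both young ones at ZT4 and at ZT8, and for Clk both lie below.

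Among 7 clock output genes, which cycle under the clock without being part of it, none rose and 3 fell. They were Cyp4d21 (16.4, 12.2, 11.6 and 11.5 to 4.28, 4.34, 4.30 and 3.78), Ugt35b (-1.19 ± 0.08) and Pdh (-0.41 ± 0.10), an enzyme that renews the visual chromophore. Of 8 activity-regulated genes, 3 rose, among them kay and Jra, the fly Fos and Jun (0.57 ± 0.06 and 0.37 ± 0.05), and 3 fell, CG17778, CG8910 and CG13868. Their median was -0.04 with scaling and 0.18 without it.

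In the eye, rhodopsins and the cascade behind them changed in different directions. Of 7 rhodopsin genes 5 rose and 1 fell. Rh3 and Rh4, the ultraviolet rhodopsins of the inner photoreceptor R7, rose by 0.82 ± 0.05 and 0.78 ± 0.06, and Rh6, the green rhodopsin of R8, by 0.68 ± 0.06. Rh3 was at 437, 430, 447 and 453 in young and at 708, 741, 824 and 858 in old libraries. Rh5 of the other R8 cells and Rh2 of the ocelli rose by 0.25 ± 0.05 and 0.35 ± 0.04. Rh7, which is also found in the brain, fell from 19.4, 17.2, 16.3 and 21.4 to 7.03, 7.49, 8.30 and 9.35. The difference of ninaE, the rhodopsin of the outer photoreceptors R1 to R6, was -0.04 ± 0.08 (adjusted p = 0.69 in limma) and its groups overlapped.

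Downstream of rhodopsin, 1 of 21 cascade genes rose and 11 fell, with a median of -0.35. The channel trpl fell from 854, 893, 1014 and 1069 to 425, 415, 543 and 556, whereas its partner channel trp rose from 183, 185, 205 and 201 to 230, 234, 244 and 235 (0.28 ± 0.04). The trp regulator inaF-B had the steepest fall of the list, -1.34 ± 0.05. Lower levels were also seen for the G protein subunits Galphaq (-0.36 ± 0.05), Gbeta76C (-0.35 ± 0.06) and Ggamma30A (-0.80 ± 0.07). They were also seen for the protein kinase C gene inaC (-0.48 ± 0.04), the diacylglycerol kinase rdgA (-0.49 ± 0.05) and Arr1 (-0.31 ± 0.06), an arrestin. The phospholipase C gene norpA had a difference of -0.01 ± 0.06 and was not called. Of 8 genes for chromophore supply and rhodopsin maturation 5 rose and 2 fell, 1 of the falls being lost when any 1 library was left out. The rhodopsin chaperone ninaA rose from 54.7, 54.5, 46.7 and 44.3 to 96.4, 99.8, 81.9 and 84.8, and the enzymes ninaG and ninaB by 0.62 ± 0.05 and 0.54 ± 0.05. Of 5 genes of histamine transmission, by which photoreceptors signal to the brain, 1 fell, the histidine decarboxylase Hdc (-0.43 ± 0.08). When 1 library was left out 0 to 2 of the 5 fell, with a count other than 1 for all libraries but the second young and first old ones at ZT8, and without scaling 1 rose and none fell. Photoreceptor markers gave 1 rise and 1 fall of 8, those of trp and inaC, which are already counted in the cascade. The median of the 8 was -0.08 with scaling and 0.15 without it. Their summed levels were 16824 to 18512 in young and 16327 to 17026 in old libraries.

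Most neuronal genes on the lists fell. In bulk heads, fewer cells of a type and less RNA per cell cannot be told apart. Of 14 genes of the presynaptic release machinery 13 fell and none rose, with a median of -0.51, where 19.2% of all genes tested fell. The vesicle fusion clamp cpx was at 1219, 1138, 1210 and 1261 in young and at 502, 526, 560 and 620 in old libraries (-1.13 ± 0.06). The calcium sensor Syt1 fell from 569, 607, 530 and 501 to 286, 282, 272 and 298. Snap25, a membrane fusion protein, fell by 0.93 on the log2 scale and the active zone scaffold brp by 0.54, while nSyb, at -0.39 ± 0.12, missed the threshold (adjusted p = 0.031 in limma). For all 14 genes the 4 old libraries lay below the 4 young ones, which was so for 22.1% of all genes tested.

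The same direction was found for the genes that make and load transmitters, of which 8 of 13 fell and none rose. Gad1, which makes GABA, went from 157, 154, 144 and 151 to 69.8, 76.1, 72.7 and 75.3, and the vesicular transporters VGAT, VAChT and VGlut fell by 0.94, 0.89 and 0.88. The dopamine enzyme gene ple had a difference of -0.05 ± 0.05 and was not called. Among the nicotinic acetylcholine receptor subunits 8 of 10 fell and 1 rose. The subunit gene nAChRbeta1 fell from 315, 309, 294 and 301 to 128, 123, 129 and 134, and nAChRbeta3 rose from 13.2, 15.1, 13.7 and 12.2 to 25.0, 30.2, 23.4 and 24.8. Of 15 potassium channel genes 11 fell, with Shal (-0.86 ± 0.05), Shab (-0.82 ± 0.07) and the Shaker regulator qvr (-0.81 ± 0.06) the furthest, and the inward rectifier Irk1 rose by 0.44 ± 0.07. Of 29 genes of the Dpr and DIP families, surface proteins that match synaptic partners, 26 fell and none rose, with a median of -0.59. The number was 17 without scaling, with a median of -0.38.

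The 7 neuron markers gave 6 falls and no rise, but nSyb, brp and Syt1 among them are already counted in the presynaptic list. The marker elav fell from 44.5, 42.9, 43.4 and 43.2 to 27.8, 28.2, 28.9 and 32.9. The summed level of the markers was 1439 to 1703 in young and 867 to 1072 in old libraries. Their part in the falls of the synaptic lists was not tested. Glial markers went both ways, with 3 of 10 rises and 4 falls. The GABA transporter Gat was at 127, 120, 131 and 140 in young and at 51.1, 48.5, 59.1 and 63.6 in old libraries, and the glutamate transporter Eaat1, alrm of astrocytes and nrv2 fell by 0.65, 0.55 and 0.38. Moody of the blood-brain barrier rose by 0.56 ± 0.04 and wrapper by 0.63 ± 0.07, and repo, present in nearly all glia, had a difference of 0.19 ± 0.08 and was not called. Of 25 neuropeptide genes 7 rose and 8 fell, with a median of -0.10 that was 0.13 without scaling, and 4 rose with the spread of all 24 libraries. Crz, the peptide corazonin, rose from 28.1 to 42.0 in young to 67.2 to 83.3 in old libraries. The brain insulins Ilp2, Ilp3 and Ilp5 fell by 0.71, 0.88 and 1.28, and the clock neuron peptide Pdf was at -0.13 ± 0.07, not called.

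**Figure D3:**
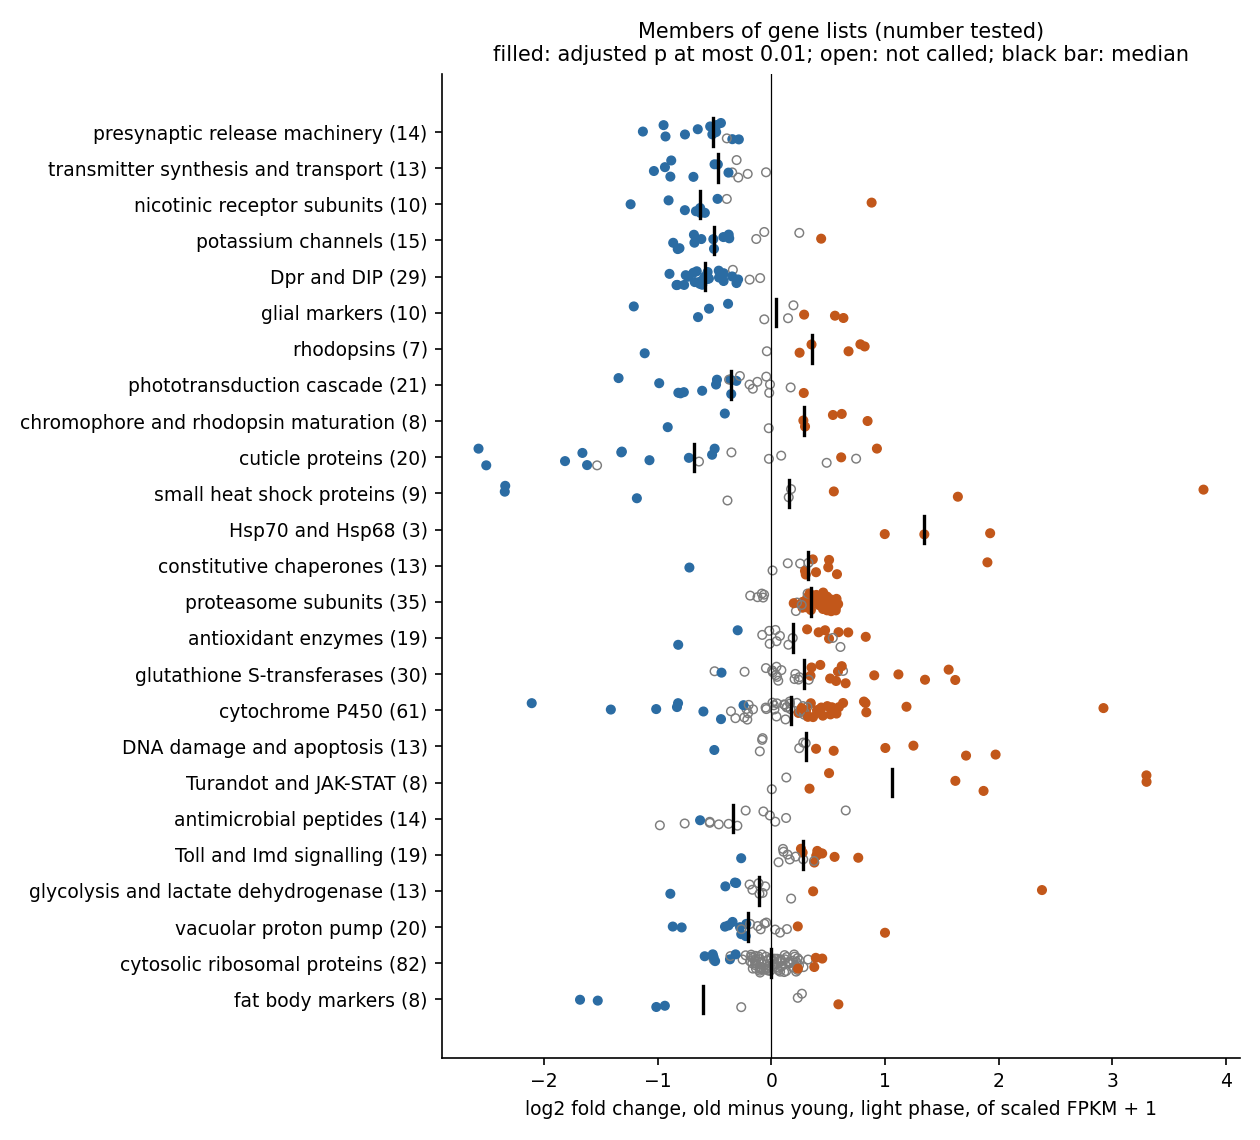
The log2 fold change of scaled FPKM + 1, old minus young in the light phase (x axis), for each tested member of 25 gene lists (number tested in parentheses), filled where it was called (orange higher, blue lower) and open where it was not. Black bars mark list medians, which were -0.51 for the presynaptic list, 0.35 for the proteasome and -0.005 for cytosolic ribosomal proteins.

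Stress protein families did not all change alike. Of the inducible Hsp70 and Hsp68 group 3 of 7 members passed the filter on mean level, Hsp70Bb and Hsp70Bc only through the old libraries, so no count is read from this group. Hsp68 rose from 1.91 to 2.43 in young to 6.85 to 7.13 in old libraries, and Hsp70Bb was at 0.465 to 0.679 and 4.73 to 5.40. The Hsp70 copies are near identical, so reads could be split between them. Of 9 small heat shock genes 3 rose (Hsp22, Hsp26 and l(2)efl) and 3 fell (CG4461, CG7409 and Hsp67Bc). Of 13 constitutive chaperone genes 8 rose, with a median of 0.33 where 16.1% of all genes tested rose, and 5 rose with the spread of all 24 libraries. They included the cytosolic Hsc70-4 (0.30 ± 0.04), Gp93 of the endoplasmic reticulum (0.51 ± 0.04) and the co-chaperone stv (0.58 ± 0.05). CG7130, a gene of the DnaJ type, rose from 4.28, 3.08, 3.14 and 3.51 to 12.8, 13.4, 16.5 and 21.3.

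Proteasome subunits moved together, with 26 of 35 higher in old heads, none lower and a median of 0.35. The largest differences were those of the core subunits Prosalpha3 (0.59 ± 0.08) and Prosbeta3 (0.57 ± 0.07) and of the regulatory subunits Rpn2 (0.57 ± 0.05) and Rpt3 (0.57 ± 0.07). Rpn2 was at 9.75, 10.3, 10.5 and 9.25 in young and at 15.3, 15.8, 15.6 and 14.3 in old libraries. With the spread taken from all 24 libraries, 14 members rose. Of 20 autophagy genes 1 rose, the cargo receptor ref(2)P (109, 116, 121 and 127 to 156, 150, 169 and 172), and 1 fell, Atg10, with a list median of -0.02. Without scaling 9 rose and none fell (median 0.20), and the fall of Atg10 was lost with the spread of all 24 libraries and without 6 of the 8 libraries in turn, all but the first young and second old library at ZT8. DNA repair and apoptosis genes gave 6 rises and 1 fall of 13. Ku80 and Irbp, the subunits of the complex that binds broken DNA ends, rose most, Ku80 from 3.32, 3.73, 3.38 and 3.12 to 16.8, 13.4, 17.6 and 17.4 (1.97 ± 0.09) and Irbp by 1.71 ± 0.08. The stress-response genes Gadd45 and Xrp1 rose by 1.25 ± 0.10 and 1.00 ± 0.06. The difference of p53 was 0.28 ± 0.09, not called, and the pro-apoptotic gene skl fell by 0.50, a call that was lost without scaling, with the replicate block and without 6 of the 8 libraries in turn, all but the first old library at ZT4 and the second at ZT8.

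Among enzymes that handle foreign compounds and oxidants, 13 of 30 glutathione S-transferases rose and 1 fell, with a median of 0.29, and without scaling 21 rose. GstE8 was at 11.5, 11.5, 8.75 and 9.16 in young and at 37.2, 30.9, 31.2 and 34 in old libraries, and GstD5 and GstD2 rose by 1.56 ± 0.13 and 1.35 ± 0.19. Of 61 cytochrome P450 genes 24 rose (39.3%) and 8 fell (13.1%), where 16.1% of all genes tested rose and 19.2% fell. The rises numbered 16 with the spread of all 24 libraries, 17 to 20 with 1 library left out and 36 without scaling. Cyp4d1 was at 0.427 to 0.808 in young and 9.0 to 12.5 in old libraries, so it passed the filter on mean level only through the old ones. Antioxidant genes gave 7 rises and 2 falls of 19, with 12 and 1 without scaling and 1 fall without any 1 of the 4 libraries at ZT4. The glutathione peroxidase PHGPx rose by 0.83 ± 0.03, the thioredoxin reductase Trxr-1 by 0.68 ± 0.04 and the regulator cnc by 0.31 ± 0.04. The extracellular superoxide dismutase gene Sod3 fell by 0.82, and the differences of the cytosolic Sod, of Sod2 and of catalase (Cat) were -0.08 ± 0.04, 0.04 ± 0.07 and -0.02 ± 0.06, none of them called.

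Of 19 genes of the Toll and Imd immune pathways 10 rose, 8 were not called and 1 fell, the receptor Tl (-0.27 ± 0.03), whose call was lost without scaling. Rel, the NF-kappaB factor of the Imd pathway, was at 25.5, 32.3, 26.7 and 34.8 in young and at 51.9, 52.0, 44.6 and 55.9 in old libraries, and its kinase subunits ird5 and key rose by 0.56 ± 0.08 and 0.40 ± 0.05. The recognition protein PGRP-SA, which senses bacterial walls ahead of Toll, rose from 21.1, 28, 32.4 and 32.8 to 52.5, 49.1, 58.6 and 65.9, and 4 of 9 such genes rose. The count was 2 to 3 when 1 library was left out, with 3 only without the second young library at ZT8 or the first old one at ZT4, and 2 with the replicate block. Of 8 genes of the Turandot family and the JAK-STAT pathway 6 rose, with a median of 1.06. They were TotA, TotC, TotM (1.87 ± 0.29), TotX (1.62 ± 0.17), Socs36E, a target and inhibitor of the pathway (0.51 ± 0.09), and its receptor dome (0.34 ± 0.06).

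Of 14 antimicrobial peptide genes none rose and 1 fell, Drsl4 (-0.63 ± 0.15), whose groups overlapped. This call was lost without scaling, with the replicate block, with the spread of all 24 libraries and without any 1 of 7 of the 8 libraries, all but the first young library at ZT4. The peptides' summed level was 362 and 922 in young libraries at ZT4, 238 and 1874 at ZT8, 603 and 450 in old libraries at ZT4 and 398 and 453 at ZT8. The second young library was the higher of the pair at both times. It held the highest young value of 10 of the 14 genes at ZT8 and of 3 at ZT4, and for 11 genes all old values lay inside the young range. None of 8 immune-induced peptide genes was called, and 1 rose without scaling, with the replicate block, or without the second young or the first old library at ZT4. Blood cell markers gave 3 rises and 1 fall of 9, NimC1 of plasmatocytes rising by 0.79 ± 0.04 and Pxn falling by 0.40 (a call lost without scaling and without the first young or the second old library at ZT4), with summed levels of 236 to 249 in young and 276 to 288 in old libraries. With the replicate block, or with any 1 library left out, 2 of these markers rose. Their part in the changes of immune genes and of PPO1 and PPO2 was not tested.

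Genes of energy metabolism changed in both directions. Of 13 genes of glycolysis and lactate formation 2 rose, ImpL3 and the hexokinase Hex-A (0.37 ± 0.06), and 4 fell, with Gapdh1 at 262, 228, 276 and 284 in young and 134, 134, 157 and 140 in old libraries. The list median was -0.11 with scaling and 0.12 without it, where 2 rose and 1 fell. Of 21 tested transcripts of the mitochondrial genome 7 fell and none rose. mt:CoIII, a subunit of the terminal oxidase, was at 12210, 9660, 14680 and 18050 in young and at 4540, 4534, 6815 and 7955 in old libraries, and the small ribosomal RNA mt:srRNA fell from 231 to 459 to 39.5 to 85.6. With the spread taken from all 24 libraries 1 of the 21 fell. Poly(A) selection governs how much of these transcripts is captured, and its part was not tested. Of 82 cytosolic ribosomal protein genes 4 rose and 6 fell with a median of -0.005, but 35 rose and none fell without scaling (median 0.23), and with 1 library left out 2 to 7 rose and 1 to 7 fell. The vacuolar proton pump gave 9 falls and 2 rises of 20, with a median of -0.20. Without scaling 3 fell and 6 rose (median 0.025), and with the spread of all 24 libraries 5 fell and 2 rose. Its subunit gene Vha68-1 fell from 103, 109, 96.7 and 95.4 to 61.3, 59.9, 55.5 and 55.7.

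Among fat body genes the yolk proteins fell. Yp1, which the head fat body secretes in females, was at 12860, 9851, 16750 and 13820 in young and at 7065, 7124, 5931 and 5924 in old libraries (-1.01 ± 0.17). Yp3 fell from 3248, 2077, 4506 and 4160 to 1208, 1015, 913 and 1056, and Yp2 and fit by 1.53 and 0.94. In the same list Ilp6, an insulin-like peptide of the fat body, rose by 0.59 ± 0.05, and 3 of the 8 were not called. Lipid storage and synthesis genes gave 7 rises and no fall of 11, with the lipase bmm at 31.2, 35.5, 35.3 and 39.2 in young and 56.3, 54.1, 57.6 and 61.8 in old libraries and the fatty acid synthase FASN1 at -0.27 ± 0.12, not called. Without the first young or second old library at ZT8 or the first old one at ZT4, 4 of the 11 rose, and with the spread of all 24 libraries 3 did. Of 13 insulin and TOR genes 5 rose, including the receptor InR (0.38 ± 0.04). Without scaling, 10 of these 13 rose.

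Cuticle genes fell in 11 of 20 cases and rose in 2, with a median of -0.68. Beside Cpr49Ae and Cpr49Ag, Cpr65Au fell from 324, 270, 268 and 288 to 99.3, 108, 139 and 113, and Cpr67B rose by 0.93 ± 0.08. Another 104 members of the list did not pass the filter, 31 of them at 0 in all 8 libraries. Of 25 odorant binding protein genes 3 rose and 6 fell, with Obp56h the furthest down (24.3 to 27.0 in young and 8.21 to 11.6 in old libraries), where 16.1% of all genes tested rose and 19.2% fell. Without scaling 5 rose and 2 fell. Of 13 odorant, taste and ionotropic receptors 1 rose, Or46a, and 1 fell, Or63a, with a median of -0.06 that was 0.13 without scaling. In muscle, 7 of 21 sarcomere genes fell, among them myosin heavy chain Mhc (-0.54 ± 0.04), and 4 rose, among them sls, the fly titin (0.66 ± 0.05). Without scaling 4 fell and 7 rose, and the list median was 0.006 with scaling and 0.23 without it.

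At ZT4 alone, 810 genes were higher in old heads (8.51% of all tested) and 1219 lower (12.8%), and at ZT8 alone 786 (8.26%) and 1027 (10.8%). With any 1 of the 4 libraries of a time left out, its counts were 255 to 379 higher and 508 to 627 lower genes at ZT4 and 240 to 416 and 326 to 577 at ZT8. Of the genes called, 1435 changed in the same direction at both times, 70.7% of those at ZT4 and 79.2% of those at ZT8, and 5 in opposite directions. The difference between the age effects at the 2 times was tested directly, and 15 genes (0.158%) passed an adjusted p of 0.05 in limma, 9 with a more positive effect at ZT8 and 6 with a more negative one. The unadjusted p was at most 0.05 for 818 genes.

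For tim, the age difference was 1.36 at ZT4 and 0.39 at ZT8 (difference -0.97 ± 0.09, adjusted p = 0.016 in limma). Its call was lost without either young library at ZT4, the second old one at ZT4 or either old one at ZT8 (adjusted p up to 0.083) and with the replicate number as a block. Usp8, a ubiquitin protease gene, went from 18.4 and 17.8 in young and 37.9 and 34.2 in old heads at ZT4 to 77.9 and 76.9 against 69.7 and 67.2 at ZT8. Its age difference was 0.955 at ZT4 and -0.17 at ZT8, the latter not called by itself (adjusted p = 0.077 in limma). The change between the 2 times (-1.13 ± 0.09, adjusted p = 0.011 in limma) was not called without either young ZT4 library. The gene rgr was higher in old heads at ZT4 (6.08 and 6.34 against 8.03 and 8.34) and lower at ZT8 (11.3 and 11.2 against 7.79 and 7.77), but lost its call without any 1 of the 8 libraries (adjusted p from 0.094 to 0.18).

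Several of the other calls rested on transcripts listed at or near 0. The large mitochondrial ribosomal RNA mt:lrRNA was listed at 0 in both young libraries at ZT8 and at 41730 and 36260 at ZT4, against 11090 to 19070 in the 4 old libraries. It was also at 0 in 3 young libraries of other times. A gene of the meiotic crossover machinery, mus312, was at 0.0044 and 0.073 in young and 4.01 and 4.23 in old heads at ZT4, and at 3.25 and 3.16 against 0.062 and 0.062 at ZT8. At ZT16 its 2 young replicates were at 4.13 and 0.0012. The short RNAs snoRNA:Me28S-U3344b, scaRNA:MeU2-G25 and snoRNA:Psi28S-3305a were each above 0 in 1 of the 4 groups and listed at 0 in the other 3. The remaining named genes, S-Lap1 and S-Lap2, belong to the cluster described below.

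The age effect in the light phase was then set against that at the other 4 times. Of the 3359 genes called in the light phase, 3271 had the same sign of difference over ZT0, ZT12, ZT16 and ZT20. These are other libraries, though all 24 were scaled together. The matching share over all genes tested was not counted, so this number has no background beside it. A test of the light-phase effect against the effect at those times, over all 24 libraries, called 28 genes (0.294%) at an adjusted p of 0.05 in limma, 12 with a more positive and 16 with a more negative age effect in the light phase, and 894 had an unadjusted p of at most 0.05. For tim the effect was 0.87 in the light phase and -0.07 at the other times (difference 0.94 ± 0.06, adjusted p = 5.0e-07), and for per 1.27 and 0.41 (0.87 ± 0.13, adjusted p = 0.008). The means over the other times join unlike values. The effect of tim was 0.463 at ZT0, -0.119 at ZT12, -0.464 at ZT16 and -0.159 at ZT20. That of per was 0.625, 0.629, -0.185 and 0.552 at these times.

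The histamine receptor gene ort, which receives the photoreceptor signal, had effects of 0.22 in the light phase and -0.62 at the other times. In old heads its mean was 9.29 at ZT4 and 9.06 at ZT8, against 7.78 and 7.73 in young heads, while at ZT20 it was 6.27 against 11.9. Its light-phase difference by itself was not called (adjusted p = 0.016 in limma). The channel gene trp was at 232 and 239 in old against 184 and 203 in young heads at ZT4 and ZT8 and 206 against 260 at ZT20 (0.55 ± 0.08, adjusted p = 0.0068). For chp, a photoreceptor surface protein, the effect was -0.21 in the light phase and -0.68 at the other times (adjusted p = 0.012, and 0.055 without the first young library at ZT4). The rise of ninaA was larger in the light phase (0.85 against 0.29), but its call was lost without any 1 of 7 of the 8 light-phase libraries, all but the first young library at ZT8 (adjusted p up to 0.081). Hph, which encodes the prolyl hydroxylase that senses oxygen, had effects of 0.30 and -0.29 and rgr of -0.06 and -0.47. The call of rgr was lost without the first young or second old library at ZT4 or the second young or first old one at ZT8. In the light phase by itself the differences of chp, Hph and rgr were not called (adjusted p = 0.12, 0.0102 and 0.75 in limma). That of chp was 0.02 at ZT4 and -0.44 at ZT8.

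Among the genes with a more negative age effect in the light phase, the noncoding gene CR44207, antisense to and inside CG1688, was at 12.5 and 11.3 in young and 1.40 and 0.932 in old heads at ZT4, at 6.54 and 7.66 against 1.29 and 0.768 at ZT8, and at 0.263 to 1.63 in young heads at the other times. Its effect was -2.29 in the light phase and -0.10 at the other times (difference -2.20 ± 0.14). The value of -0.10 averages 0.308 at ZT0, -0.83 at ZT12, -0.088 at ZT16 and 0.218 at ZT20. CR44207 was thus lower in old heads at ZT12 too. Its levels at these other times were low in both ages, where a change comes out too small on this scale. The difference from the light phase therefore rests in part on the pseudocount. CG11891 had effects of -1.29 in the light phase and -0.29 at the other times. The latter is a mean of unlike values, -1.03 at ZT0, 0.01 at ZT12, 0.31 at ZT16 and -0.44 at ZT20. Its fall at ZT0 was thus close to that at ZT4 (-1.09). For CG15784 and CG13315 the effects were positive, at 2.47 and 0.65 in the light phase and 3.16 and 1.20 at the other times.

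**Figure D4:**
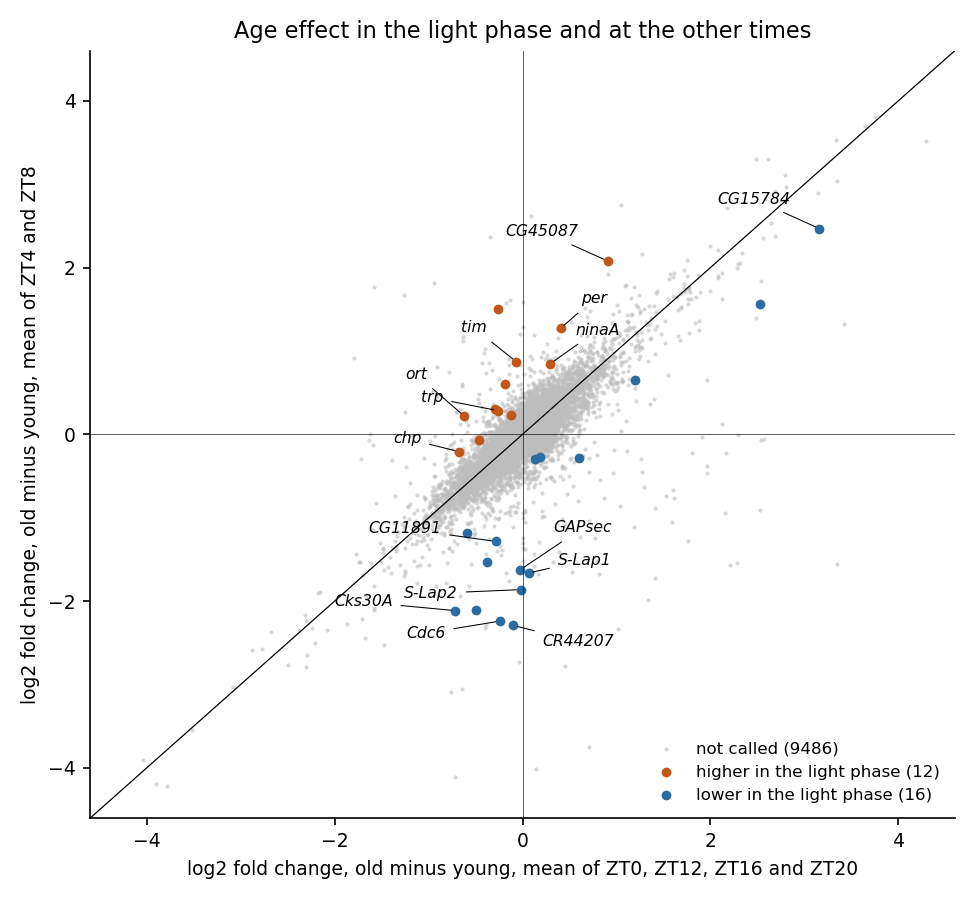
The age difference (log2, old minus young) as the mean of ZT4 and ZT8 (y axis) against the mean of ZT0, ZT12, ZT16 and ZT20 (x axis) for the genes tested, with the line of equal differences (1 gene lies outside the axes). Orange points are the 12 genes with a more positive age difference in the light phase and blue points the 16 with a more negative one, and CR44207, Cdc6 and the S-Lap genes lie near 0 on the x axis and below -1.6 on the y axis.

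S-Lap1, S-Lap2, GAPsec and Cdc6, which the test also called, are neighbours on chromosome 3L (BDGP6). S-Lap1, S-Lap2 and Cdc6 passed the filter on mean level only through the young libraries, with old means of 0.58, 0.21 and 0.80. Their calls thus rest on the libraries that let them pass. S-Lap1 (8617235 to 8619474) and S-Lap2 (8619888 to 8622091), leucine aminopeptidase genes named for their role in sperm, lie on the plus strand. GAPsec (8622039 to 8623901), whose end overlaps that of S-Lap2, and Cdc6 (8631509 to 8634069), a DNA replication licensing factor, lie on the minus strand. The region around them was examined after these values had been seen. S-Lap1 was at 13.7 and 14.4 in the young libraries at ZT4 and at most 0.838 in the other 22 libraries. Cdc6 was at 19 and 20.1 there, at 2.14 and 2.83 in young heads at ZT8 and at most 1.04 in the old libraries of any time. GAPsec reached 28.1 and 26.8 at ZT4 and 9.18 and 13.5 at ZT8 in young heads and stayed between 4.62 and 6.60 in old heads.

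Further along, Cpr66D (8640439 to 8643584) and CG13305 (8644916 to 8646822) were also highest in the same pair of young ZT4 libraries, at 11.3 and 10.4 and at 25.6 and 27.8. Old heads at ZT4 held 1.26 and 0.815 of Cpr66D and 4.21 and 3.14 of CG13305. Cpr66D, which also passed the filter only through the young libraries, was called against the other times (-1.15, adjusted p = 0.012 in limma). CG13305 was not (-0.44, adjusted p = 0.59), since its age effect was -1.71 in the light phase and -1.26 at the other times. The sarcomere gene Zasp66 (8624371 to 8638813), whose span contains Cdc6, did not share the pattern, with 226 and 245 in young and 161 and 176 in old heads at ZT4. The arrestin gene Arr2 (8647261 to 8648936) at the far end was at 4153 and 4005 against 3355 and 3535. Cks30A on chromosome 2L (9330763 to 9331981) was high in young heads at both times, at 34.8 and 32.9 at ZT4 and 30.1 and 32.2 at ZT8, and at 6.17 to 7.51 in the 4 old libraries. Young heads at ZT12 held 15.7 and 8.96. Its neighbours CR45457, CG17005 and CR45456 fell in the light phase too (-1.47, -1.08 and -0.84). Unlike Cks30A, these neighbours were not called against the other times.

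**Figure D5:**
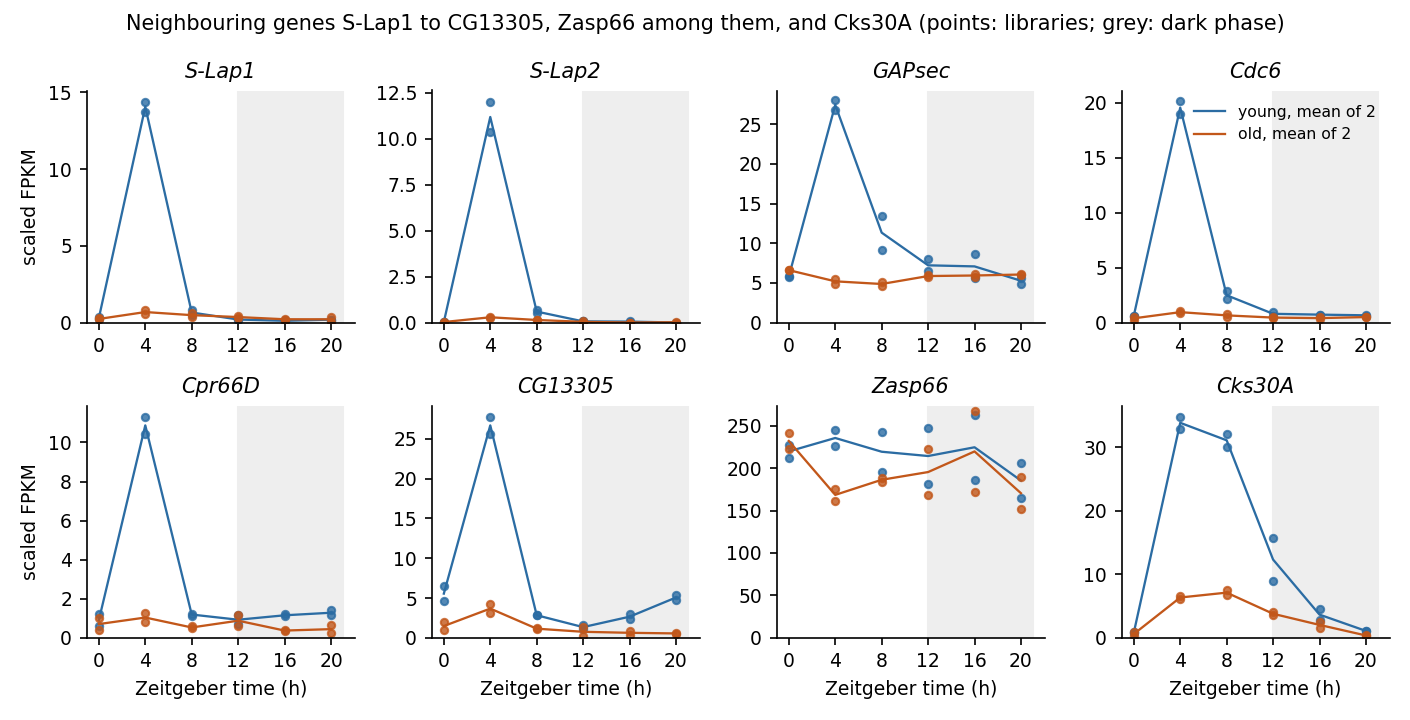
Scaled FPKM by Zeitgeber time (x axis, h) of 6 neighbouring genes of chromosome 3L, of Zasp66 among them and of Cks30A, with a point for each of the 24 libraries, lines through the means of 2 (young blue, old orange) and the dark phase in grey. S-Lap1, S-Lap2, GAPsec, Cdc6, Cpr66D and CG13305 stand out in the 2 young libraries at ZT4, Cks30A in the 4 young light-phase libraries, and Zasp66 in neither.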

How the data were processed

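RNA of heads of 5-day and 55-day females was sequenced at 6 times of day with 2 replicates. The authors used skewer as read filter and TopHat as aligner on BDGP6 (dm6), and deposited FPKM per gene from Cuffdiff with the FlyBase annotation, 17637 genes in 1 table per age. How Cuffdiff normalized between libraries is not given in the sources used here. Columns are named by hour, and hours from 24 on were taken as replicate 2. The ARSER p-values, q-values, phases and periods deposited in the same tables were not used, and no column was of an unlabelled sample.

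From these values 235 microRNA hairpins were left out (17402 genes kept), and all 24 libraries were scaled by the median ratio to the mean library over 9159 genes above 0 in every library with a median of at least 1 FPKM. The mean log2 scaling factor of the old light-phase libraries exceeded that of the young ones by 0.23. Genes with a mean scaled FPKM above 1 over the 8 libraries were tested by limma 3.58.1 (eBayes with trend, R 4.3.3) on log2(scaled FPKM + 1), with time of day as a block for the light phase, 4 group means for each time and for ZT8 against ZT4, and 12 group means of all 24 libraries for the light phase against the other times. The threshold was an adjusted p of 0.01 for age and 0.05 for the tests of differences between effects. Python 3.11.15, numpy 2.4.6, pandas 2.3.3 and matplotlib 3.10.9 were used, with coordinates from the BDGP6 annotation, which held 9356 of the 9514 genes tested.

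Named genes were the 20 per direction with the largest change among called genes with a mean of at least 10 and no overlap of the ages, the 5 per direction with the smallest adjusted p for ZT8 against ZT4, the 8 per direction for the light phase against the other times, the core clock, and members of the lists with the highest level or largest change. Other list members and the neighbours on 3L and 2L were named after their values were seen. The comparison, the lists and the rules were chosen with earlier results of these data known. Alternatives were the pseudocount, filters, scalings, the time or replicate block, the source of the spread, thresholds and leaving out each library. FPKM keeps no depth, so the errors given rest on how far libraries of a group differed. In the light-phase fit, with age and time of day as separate terms, they also hold any change of the age effect between ZT4 and ZT8. For tim the error was 0.18 in that fit and 0.06 for ZT4 alone with group means. The values of 1 list member are not reported here.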

Additional observations from a re-analysis of the deposited data

Results flagged for a closer look

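In 124 groups of 4 libraries of 1 age (62 genes), a single library stood apart from the other 3 in 6 cases, and chance gives about 1 in 20. These were CG32368 in the second old library at ZT8 (50.6), Nplp3 in the first (13.4) and Scp1 in the second old library at ZT4 (10.1), CG9766 in the second old library at ZT8 (7.35), CecB in the second young library at ZT8 (24.9) and Drs in the second young library at ZT4 (116). CecB was at 0 to 3.75 and Drs at 10.8 to 15.8 in the other young libraries.

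The age difference itself differed between ZT8 and ZT4 (log2, ZT8 minus ZT4, limma) by 15.9 for mt:lrRNA, 5.05 for snoRNA:Me28S-U3344b, 3.31 for scaRNA:MeU2-G25, 2.75 for S-Lap2, 3.01 for S-Lap1, -4.29 for mus312, -1.13 for Usp8, -0.97 for tim, -2.50 for snoRNA:Psi28S-3305a and -0.83 for rgr. For mt:lrRNA and the 3 short RNAs these values set a library group listed at 0 against one that was not, so their size depends on the pseudocount.

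Against the other 4 times, the light-phase age difference was more positive by 0.94 for tim, 0.84 for ort, 0.59 for Hph, 0.55 for trp, 0.87 for per, 0.47 for chp, 0.40 for rgr and 0.55 for ninaA. It was more negative for CR44207 (-2.20), S-Lap2 (-1.84), Cdc6 (-1.998), S-Lap1 (-1.73), GAPsec (-1.60), CG15784 (-0.69), CG11891 (-0.998) and CG13315 (-0.55).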

How the results depend on the processing

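On the deposited FPKM 3495 genes were higher and 970 lower in the light phase, 2130 and 696 at ZT4, and 2071 and 494 at ZT8, and the sign of cry turned (0.025). Of the 45 genes named for the light phase, 39 were called under all alternatives run. An adjusted p of 0.05 gave 2360 higher genes, and a fold change of at least 1.5 gave 518 and 696. Leaving out 1 library gave 1116 to 1434 higher and 1437 to 1687 lower genes in the light phase, 255 to 762 and 508 to 1108 at ZT4, 240 to 593 and 326 to 796 at ZT8, 5 to 15 and 2 to 19 for ZT8 against ZT4, and 5 to 11 and 10 to 16 for the light phase against the other times. The counts at ZT4 or ZT8 moved by over 1.5 times without any 1 of the 4 libraries of that time, where the lone library of a group is assumed to vary like the other groups. The lowest count of higher genes against the other times came without the first young library at ZT4. For ZT8 against ZT4 a pseudocount of 0.1 gave 3 and 3 genes and the spread of all 24 libraries 6 and 4, and no named gene was called under all alternatives. Against the other times 12 of 16 named genes were.

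The replicate differences of 6 pairs of groups correlated at -0.078 to 0.111 across genes. The highest values were those within an age, 0.111 in young and 0.102 in old heads. Whether libraries of the same replicate number share a cohort was not tested. With the replicate block, 1374 genes were higher and 1676 lower in the light phase, and 5 and 2 were called for ZT8 against ZT4. The unknown depth limits what can be said of genes with low values.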
